A study of Homo sapiens with 21 samples.

Results

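The genes described here were TXNIP, the 4 other human alpha-arrestins of the set (ARRDC1, ARRDC2, ARRDC3 and ARRDC4), and MLXIP and MLX, which encode MondoA and its partner. They were chosen by symbol, as 7 of the 23368 genes listed in the RNA-seq table, and all 7 varied and entered the tests. The choice used the data: TXNIP was picked as one of the deepest falls 4 h after H2O2, so that contrast is given below for every gene as a description without a test, and so are the values of TXNIP at 4 h of H2O2 set against other groups. Values of TXNIP at 24 h of H2O2 were also left without a test, although those libraries did not choose it. The exception is the change of its gap between the stresses from 8 to 24 h, which was tested. RNA was sequenced from hTERT-HPNE cells, a pancreatic line immortalized with telomerase and not transformed, in 7 groups of 3 biological replicates (21 libraries). The groups were untreated cells collected at 0 h and cells collected 4, 8 or 24 h after 300 µM H2O2, which causes oxidative stress, or after 400 ng/ml neocarzinostatin (NCS), a radiomimetic drug that breaks both DNA strands. All cells were grown with 75% DMEM without glucose, 25% M3 medium and 5.5 mM added D-glucose, and the medium was replaced at treatment. Untreated cells were collected at 0 h alone, so hours in fresh medium and treatment cannot be told apart in a comparison with untreated cells, whereas H2O2 and NCS were compared at equal times. The study also worked with a clonal reporter of this line, and the sources used here do not say whether the sequenced cells were that clone.

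Alpha-arrestins share the arrestin fold and carry PPxY motifs, through which they bring ubiquitin ligases of the NEDD4 family to membrane proteins. TXNIP in addition binds reduced thioredoxin and restrains glucose uptake, and ARRDC4 shares the latter role. MondoA, encoded by MLXIP, forms a dimer with MLX that senses glucose 6-phosphate, enters the nucleus and binds carbohydrate response elements, DNA motifs built from a pair of E-box-like parts, and TXNIP and ARRDC4 are its best known direct targets. The level of TXNIP mRNA is therefore widely read as an output of glucose sensing, and the mRNA and protein both turn over quickly.

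The sequences just upstream of TXNIP and ARRDC4 are shown because both genes are known targets of MondoA, and capitals mark the carbohydrate response pair in TXNIP and an E-box in ARRDC4. Both are from RefSeq on GRCh38.p14, written 5′ to 3′ on the strand of the gene, and hold the 250 bases before the annotated start: chr1:145996580-145996829 on the minus strand for TXNIP and chr15:97960453-97960702 on the plus strand for ARRDC4. The last line is a short upstream stretch of MLX at chr17:42567044-42567061 on the plus strand, with its E-box in capitals.
TXNIP: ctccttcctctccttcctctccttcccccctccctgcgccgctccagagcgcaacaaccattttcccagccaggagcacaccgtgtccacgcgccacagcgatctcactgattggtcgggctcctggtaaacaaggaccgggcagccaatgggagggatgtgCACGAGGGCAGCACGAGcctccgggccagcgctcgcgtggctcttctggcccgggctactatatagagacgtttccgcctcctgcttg
ARRDC4: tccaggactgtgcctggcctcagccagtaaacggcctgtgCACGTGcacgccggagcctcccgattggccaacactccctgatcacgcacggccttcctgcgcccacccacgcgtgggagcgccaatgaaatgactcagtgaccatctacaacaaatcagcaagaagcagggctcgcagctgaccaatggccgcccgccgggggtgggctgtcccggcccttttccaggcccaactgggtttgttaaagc
MLX: gcgggtCACGTGggcacg

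Promoter windows of 300 bases, 250 before and 50 from each annotated start, were available for all 7 genes, in 10 windows. The carbohydrate response pair, searched on both strands as CACGNG and CNCGNG with 5 bases between them, matched in the window of TXNIP from -88 to -72 (match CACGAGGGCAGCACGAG) and in none of the other 9 windows, and it was found in 0.501% of all 35116 windows. The E-box CACGTG, which reads the same on both strands, lay from -210 to -205 in ARRDC4 and from -50 to -45 in MLX, and in 7.26% of all windows. CCAAT on either strand, present in 34.6% of all windows, matched in at least 1 window of each of the 7 genes, with 3 matches in ARRDC4 and those in TXNIP starting at -140 and -105. The forkhead motif GTAAACA on either strand, present in 3.42% of windows, matched in TXNIP from -124 to -118 and in the other window of ARRDC3 from -29 to -23. The antioxidant core TGACNNNGC, present in 13.3% of windows, matched in ARRDC2 at -68 to -60 and in MLX at 27 to 35, and not in TXNIP or ARRDC4. An E-box can lie inside a response pair, and no matches overlapped in these windows. A match describes letters in a window and is not a measured binding site.

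Values are log2 levels made by the rLog transformation of read counts, which shrinks differences toward 0, most for genes with few reads, so folds are understated. They are not scaled by gene length. Levels of different genes were therefore used only roughly, to call a gene low or to set it against the library medians or a mean of 5. Library medians lay between 7.14 and 7.19, no pair of libraries was identical, and counts and depths are not in the table, so the depth is unknown and no counting interval was given. Of 5 genes of the line, VIM (17.03 as the mean over libraries), COL1A1 (17.82), FN1 (20.04) and NES (12.03) lay above the library medians and S100A4 (5.10) below them, and of 7 duct genes 4 had a mean over 5 while the defining KRT19 (0.60) and CFTR (-1.34) were near or below 0. None of 6 acinar and none of 6 endocrine markers had a mean over 5, with PRSS1, CELA3A, PTF1A, INS and PDX1 listed at 0, and of 4 blood and vessel markers only CD68 did (10.11). The log2 of the summed level of the line markers ranged over groups from 20.21 to 20.69, of the duct markers from 11.62 to 11.97, and of the blood and vessel markers from 9.98 to 10.50, and their part in the results was not tested. In such bulk samples, fewer cells with a transcript and less of it per cell cannot be told apart.

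TXNIP fell within 4 h of NCS, lay deepest at 4 h of H2O2, and was above its untreated level at 24 h of both stresses. In untreated cells the 3 libraries had TXNIP at 10.26, 10.32 and 10.40. At 4 h it stood at 9.10, 9.15 and 9.16 after H2O2 and at 9.82, 9.83 and 9.84 after NCS. Both stresses thus had TXNIP below every untreated library, and every H2O2 library below every NCS library. At 8 h the values were 9.72, 9.85 and 10.09 after H2O2 and 10.17, 10.19 and 10.22 after NCS. The H2O2 libraries were more widely spread at this time (SD 0.18, n = 3) than in any other group, where the SD was at most 0.07. At 24 h the values were 10.77, 10.82 and 10.84 after H2O2 and 10.89, 10.90 and 10.93 after NCS, so all 6 libraries lay above all untreated ones.

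**Figure D1:**
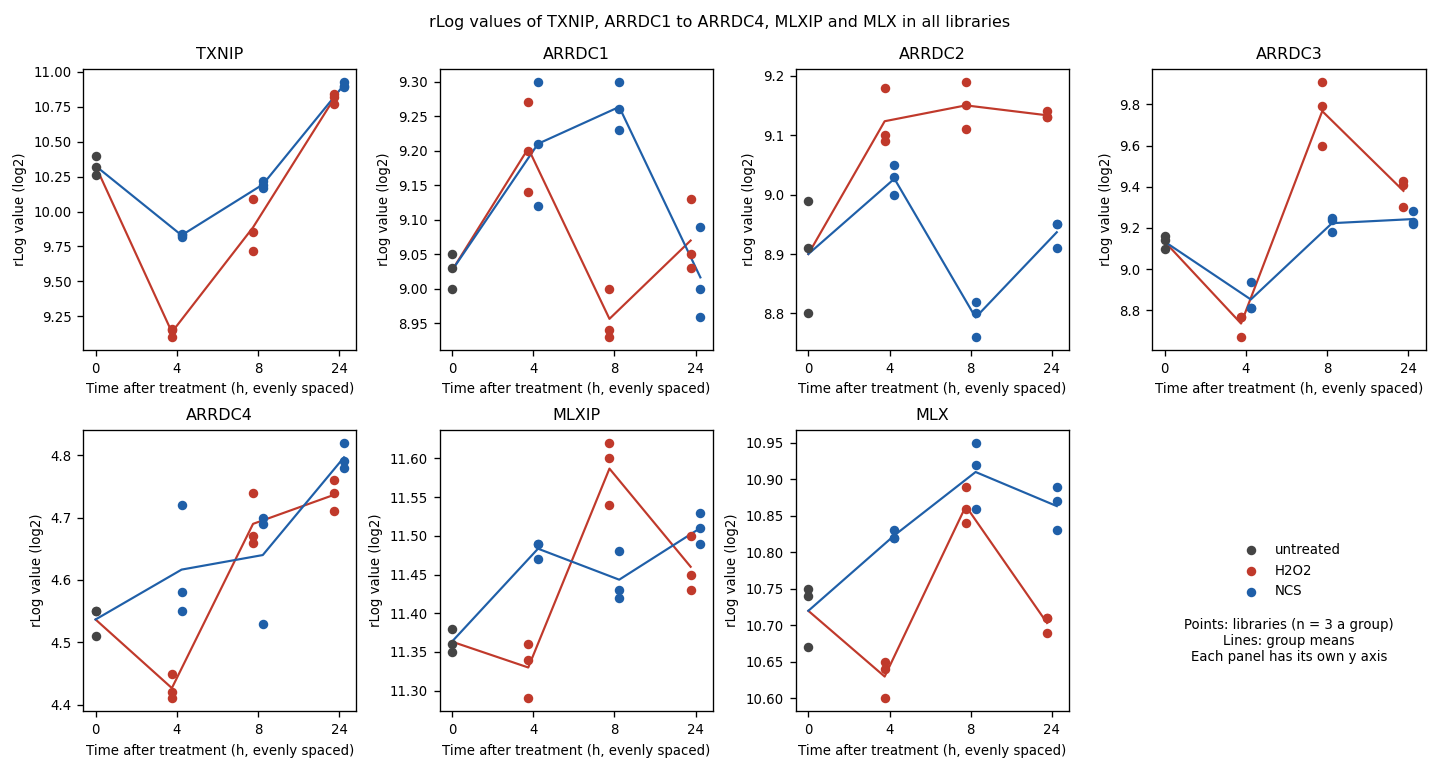
rLog values (log2, y axis, a scale of its own in each panel) of the 7 genes against time after treatment in h, evenly spaced, with 1 point a library, lines through the means of 3 libraries, and untreated cells at 0 h. TXNIP stood at 4 h at 9.14 on average after H2O2 and 9.83 after NCS and stood at 10.81 and 10.91 at 24 h, while ARRDC3 peaked at 9.77 at 8 h of H2O2.

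At 4 h of H2O2 the mean of TXNIP was 1.19 lower than untreated on the log2 scale (difference -1.19), a level 43.7% of the untreated one. Of 19694 genes it was the third from the lowest in this contrast, next to IKZF2 (-1.23) and CCNF (-1.18), and these values chose it: it was selected on this difference. The difference from untreated at 24 h of H2O2 was 0.48 (SE 0.06), given without a test. In limma's test, p was adjusted by the Benjamini-Hochberg (BH) method over all genes tested. TXNIP fell by 0.44 at 8 h of H2O2 (SE 0.06, BH-adjusted p = 7.16e-06, and at most 0.0176 over the 28 alternative fits). After NCS it fell by 0.50 at 4 h (SE 0.06, BH-adjusted p = 5.71e-06) and rose by 0.58 at 24 h (SE 0.06, BH-adjusted p = 1.76e-07). At 8 h of NCS the difference of -0.13 (95% interval -0.26 to -0.01, BH-adjusted p = 0.119) did not pass, although the library ranges were apart. It did pass with library medians aligned (-0.16, BH-adjusted p = 0.0127), with genes of a mean of at least 5 (-0.13, BH-adjusted p = 0.0407), and without H2O2 8 h replicate 2 (-0.13, BH-adjusted p = 0.00776) or 3 (-0.13, BH-adjusted p = 0.0398), whose spread enters the shared error. Each of these comparisons uses the same untreated libraries, which also entered the difference that selected TXNIP. Their p for TXNIP is therefore not independent of that choice. With 3 libraries against 3, an exact two-sided permutation test of a single gene cannot give a p below 0.1, so single-gene tests here rest on the spread shared over groups and genes.

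Between the stresses, TXNIP lay 0.69 lower in H2O2 than in NCS cells at 4 h (difference -0.69), given without a test. At 8 h it was lower in H2O2 by a log2 difference of -0.31 (SE 0.06, BH-adjusted p = 0.000406), and by between -0.41 and -0.23 over the 28 alternatives, all of which passed (highest BH-adjusted p = 0.0473). The SE of 0.06 is shared over groups and understates the wider spread of TXNIP in the H2O2 8 h libraries (SD 0.18), so p values that rest on them are too small. At 24 h the difference was -0.09, again without a test, and the library ranges were apart. From 8 to 24 h the gap closed by 0.21 (95% interval 0.04 to 0.39, BH-adjusted p = 0.0769), which did not pass. It did pass after quantile normalization (0.25, BH-adjusted p = 0.041), with genes of a mean of at least 5 (0.21, BH-adjusted p = 0.0242), and without H2O2 8 h replicate 2, whose TXNIP value of 10.09 was the highest of that group (0.31, BH-adjusted p = 0.000232). Step by step, TXNIP rose after NCS by 0.37 from 4 to 8 h (BH-adjusted p = 0.000285) and by 0.71 from 8 to 24 h (BH-adjusted p = 2.27e-08), while the same steps in H2O2 cells were 0.75 and 0.93, without a test. In order of its level TXNIP ran from H2O2 4 h through NCS 4 h, H2O2 8 h, NCS 8 h and untreated to H2O2 24 h and NCS 24 h, and of these neighbours only NCS 4 h and H2O2 8 h overlapped. Its group means spanned 1.77, with the H2O2 4 h mean that chose it as the low end.

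ARRDC3, an alpha-arrestin known for its part in the endosomal sorting of the beta-2 adrenergic receptor and of integrin beta 4, shared the low values at 4 h and then diverged from TXNIP, with its peak at 8 h of H2O2. Untreated libraries had ARRDC3 at 9.10, 9.14 and 9.16. H2O2 brought values of 8.67, 8.77 and 8.77 by 4 h, of 9.60, 9.79 and 9.91 by 8 h, and of 9.30, 9.41 and 9.43 by 24 h. All H2O2 libraries were thus below the untreated ones at 4 h and above them at 8 and 24 h. With NCS the libraries had 8.81, 8.81 and 8.94 by 4 h, then 9.18, 9.24 and 9.25 by 8 h, and 9.22, 9.23 and 9.28 by 24 h. The NCS libraries were likewise below untreated at 4 h and slightly above at the later times.

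ARRDC3 differed from untreated by -0.40 at 4 h of H2O2, without a test, rose by 0.63 at 8 h (SE 0.06, BH-adjusted p = 1.16e-07), a level 1.55 times the untreated one, and was still up by 0.24 at 24 h (BH-adjusted p = 0.0024). After NCS it fell by 0.28 at 4 h (SE 0.06, BH-adjusted p = 0.00242), and the differences of 0.09 at 8 h (BH-adjusted p = 0.368) and 0.11 at 24 h (BH-adjusted p = 0.166) did not pass, although the latter did after quantile normalization (0.17, BH-adjusted p = 0.0279) and with only the groups compared (0.11, BH-adjusted p = 0.0246). From 4 to 8 h of H2O2 it rose by 1.03 (SE 0.06, BH-adjusted p = 2.47e-10), 2.04 times, and then fell by 0.39 to 24 h (BH-adjusted p = 2.86e-05). The same early step after NCS was a rise of 0.37 (BH-adjusted p = 0.000304). At 8 h ARRDC3 was higher in H2O2 than in NCS cells by 0.54 (SE 0.06, BH-adjusted p = 1.17e-06), whereas the differences of -0.12 at 4 h (BH-adjusted p = 0.107) and 0.13 at 24 h (BH-adjusted p = 0.131) did not pass. Both of the latter passed without H2O2 8 h replicate 2 (-0.12 with BH-adjusted p = 0.0317 and 0.13 with BH-adjusted p = 0.0364). At 8 h of H2O2 TXNIP was therefore below and ARRDC3 above the untreated level in the same 3 libraries. The group means of ARRDC3 spanned 1.03, and the median span of the 11681 genes with a mean of at least 5 was 0.35. The H2O2 8 h libraries of ARRDC3 had an SD of 0.16, more than its other groups, which the shared SE of 0.06 understates. Over the 28 alternative fits the highest BH-adjusted p at 8 h of H2O2 was 0.00365 against untreated and 0.00559 against NCS.

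ARRDC4, the alpha-arrestin most often paired with TXNIP as a MondoA target, was a low gene in these cells (mean 4.64), and its differences were small. Untreated libraries had 4.51, 4.55 and 4.55. H2O2 libraries had 4.41, 4.42 and 4.45 by 4 h, then 4.66, 4.67 and 4.74 by 8 h, and 4.71, 4.74 and 4.76 by 24 h. NCS libraries had 4.55, 4.58 and 4.72 by 4 h, then 4.53, 4.69 and 4.70 by 8 h, and 4.78, 4.79 and 4.82 by 24 h. All H2O2 libraries lay below untreated at 4 h and above at 8 and 24 h, and after NCS only the 24 h libraries were clear of the untreated ones. At 4 h of H2O2 it differed from untreated by -0.11, without a test, and by -0.29 after quantile normalization. ARRDC4 rose at 24 h by 0.20 after H2O2 (SE 0.05, BH-adjusted p = 0.00343) and by 0.26 after NCS (SE 0.05, BH-adjusted p = 0.000391). The rise of 0.15 at 8 h of H2O2 (BH-adjusted p = 0.0253) did not pass without untreated replicate 2 (0.14, BH-adjusted p = 0.0788) or H2O2 8 h replicate 2 (0.13, BH-adjusted p = 0.0895), after quantile normalization (0.10, BH-adjusted p = 0.126) or with only the groups compared (0.15, BH-adjusted p = 0.0568). At 4 h it was lower in H2O2 than in NCS cells by a difference of -0.19 (SE 0.05, BH-adjusted p = 0.00517), and at 8 h (0.05, BH-adjusted p = 0.539) and 24 h (-0.06, BH-adjusted p = 0.515) the differences did not pass. Over the 21 libraries the values of TXNIP and ARRDC4 had a Pearson correlation of 0.78, those of TXNIP and ARRDC3 of 0.44, and those of TXNIP with ARRDC1 and ARRDC2 of -0.40 and -0.31, with libraries of 7 groups as points that share their treatments. These points include the H2O2 4 h and untreated libraries that chose TXNIP, and H2O2 4 h was the lowest group of both TXNIP and ARRDC4. The correlations are thus not independent of that choice.

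ARRDC1, which recruits TSG101 and NEDD4-family ligases to the plasma membrane to bud small vesicles, was higher early after both stresses and differed between them at 8 h. Untreated libraries had ARRDC1 at 9.00, 9.03 and 9.05, while NCS libraries had 9.12, 9.21 and 9.30 by 4 h, then 9.23, 9.26 and 9.30 by 8 h. In H2O2 libraries it was 9.14, 9.20 and 9.27 by 4 h, then 8.93, 8.94 and 9.00 by 8 h. At 24 h both stresses overlapped the untreated range. The difference at 4 h of H2O2 was 0.18, without a test. After NCS it rose by 0.24 at 8 h (SE 0.05, BH-adjusted p = 0.000651) and by 0.19 at 4 h (SE 0.05, BH-adjusted p = 0.00762), the latter not without NCS 4 h replicate 2 (0.14, BH-adjusted p = 0.0576) or with only the groups compared (0.19, BH-adjusted p = 0.0502). At 8 h it was lower in H2O2 than in NCS cells by a difference of -0.31 (SE 0.05, BH-adjusted p = 3.67e-05), after a fall of 0.25 from 4 h of H2O2 (BH-adjusted p = 0.000237). C9orf37 is the older symbol of ARRDC1-AS1, whose gene meets the 3′ end of ARRDC1 from the other strand. It was added after its values were seen, so its p is that of a chosen gene. C9orf37 stood at 8.56 to 8.65 at 4 h of H2O2 against 8.02 to 8.08 untreated, a rise of 0.56 (SE 0.05, BH-adjusted p = 3.06e-08), and differed by -0.02 at 4 h of NCS (BH-adjusted p = 0.972). The antisense gene of ARRDC3, listed as LOC100129716, differed by 0.09 at 4 h of H2O2 (BH-adjusted p = 0.0792). The libraries were stranded but the strand setting of the counting is not given in the sources used here, so reads of ARRDC1 and ARRDC1-AS1 may not be fully separated.

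ARRDC2, whose cargo is less well known, differed between the stresses at 8 and 24 h. Untreated libraries had ARRDC2 at 8.80, 8.91 and 8.99. After H2O2 every library lay between 9.09 and 9.19 at all 3 times, above all untreated ones. With NCS the values were 9.00, 9.03 and 9.05 by 4 h, then 8.76, 8.80 and 8.82 by 8 h, and 8.91, 8.95 and 8.95 by 24 h. ARRDC2 rose by 0.25 at 8 h (SE 0.04, BH-adjusted p = 4.04e-05) and by 0.23 at 24 h of H2O2 (SE 0.04, BH-adjusted p = 6.14e-05), and differed by 0.22 at 4 h, without a test. Against NCS at 4 h it differed by 0.09 (BH-adjusted p = 0.0581), with the library ranges apart, and this passed after quantile normalization (0.15, BH-adjusted p = 0.005) and without untreated replicate 1 or 2 (0.09, BH-adjusted p from 0.0217 to 0.028). It exceeded the NCS level by 0.36 at 8 h (BH-adjusted p = 1.1e-06) and by 0.20 at 24 h (BH-adjusted p = 0.000864). After NCS it rose by 0.13 at 4 h (BH-adjusted p = 0.0304), a call lost without untreated replicate 1 or 3 or NCS 4 h replicate 2 or 3 (0.08 to 0.13, BH-adjusted p from 0.0588 to 0.202), with library medians aligned (0.11, BH-adjusted p = 0.0773) or with only the groups compared (0.13, BH-adjusted p = 0.173). At 8 h of NCS the difference was -0.11 (BH-adjusted p = 0.0507), which passed without untreated replicate 1, H2O2 4 h replicate 1 or H2O2 8 h replicate 2 (-0.16 to -0.11, BH-adjusted p from 0.00302 to 0.0462) and under 3 other settings (-0.13 to -0.11, BH-adjusted p from 0.0177 to 0.0483).

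**Figure D2:**
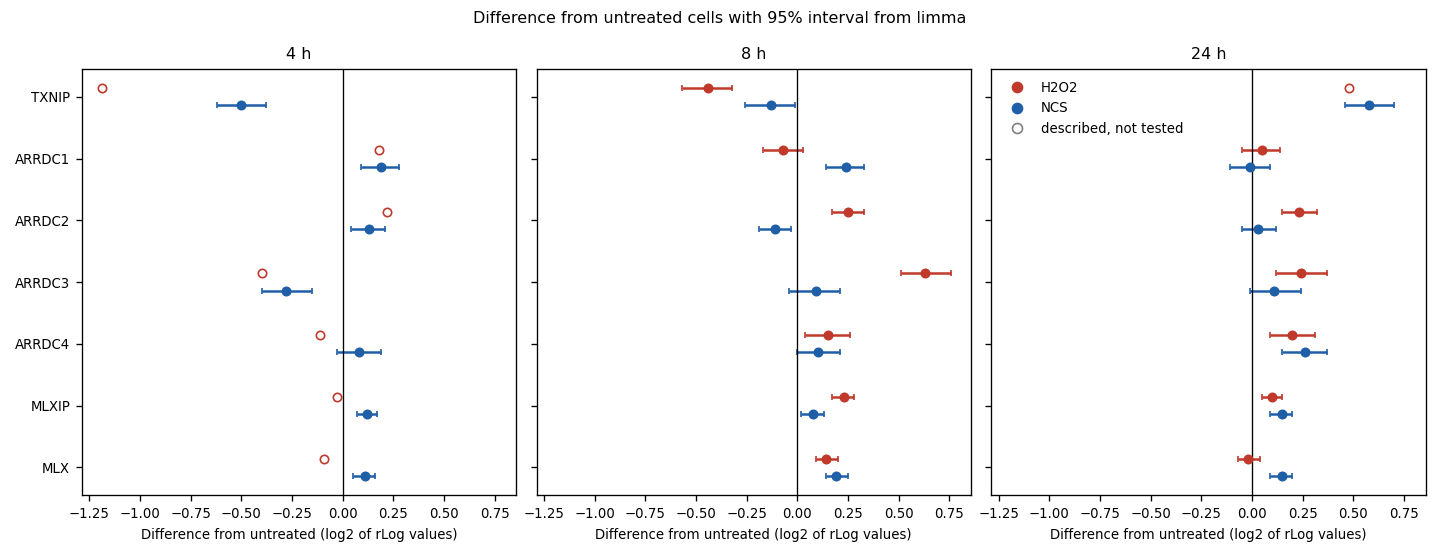
Difference of each gene from untreated cells (x axis, log2 of rLog values) at 4, 8 and 24 h of H2O2 (red) and NCS (blue), as means of 3 libraries with 95% intervals from limma. Open points without an interval were described and not tested, among them TXNIP at -1.19 and ARRDC3 at -0.40 at 4 h of H2O2. At 8 h of H2O2 TXNIP (-0.44) and ARRDC3 (0.63) stood on opposite sides of 0.

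MLXIP and MLX, the sensor pair, had group means that spanned 0.26 and 0.28, and both differed between the stresses at 4 h. Untreated libraries had MLXIP at 11.35, 11.36 and 11.38 and MLX at 10.67, 10.74 and 10.75. At 4 h of H2O2 MLXIP stood at 11.29, 11.34 and 11.36 and MLX at 10.60, 10.64 and 10.65. At 4 h of NCS MLXIP stood at 11.47, 11.49 and 11.49 and MLX at 10.82, 10.82 and 10.83. For both genes the H2O2 and NCS libraries did not overlap at 4 h, and the NCS libraries lay above all untreated ones. The H2O2 libraries lay below the untreated ones for MLX and overlapped them for MLXIP. At 8 h of H2O2 the values reached 11.54, 11.60 and 11.62 for MLXIP and 10.84, 10.86 and 10.89 for MLX, above every untreated library.

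At 4 h of H2O2 the differences from untreated were -0.03 for MLXIP and -0.09 for MLX, without a test, and quantile normalization moved the latter to -0.05. MLXIP was lower in H2O2 than in NCS cells at 4 h by a difference of -0.15 (SE 0.03, BH-adjusted p = 5.55e-05) and higher by 0.15 at 8 h (SE 0.03, BH-adjusted p = 0.000121). MLX was lower in H2O2 than in NCS cells by a difference of -0.20 at 4 h (SE 0.03, BH-adjusted p = 6.62e-06) and of -0.17 at 24 h (BH-adjusted p = 0.000118), and that of -0.05 at 8 h (BH-adjusted p = 0.168) did not pass, although it did after quantile normalization (-0.07, BH-adjusted p = 0.027) and without NCS 8 h replicate 1 (-0.07, BH-adjusted p = 0.0426). Against untreated cells MLXIP rose by 0.23 at 8 h (BH-adjusted p = 8.91e-07) and 0.10 at 24 h of H2O2 (BH-adjusted p = 0.00307). After NCS it rose by 0.12 at 4 h (BH-adjusted p = 0.00179), 0.15 at 24 h (BH-adjusted p = 0.0001) and 0.08 at 8 h (BH-adjusted p = 0.0327), the last not without untreated replicate 1 or 3 or NCS 8 h replicate 2 or 3 (0.06 to 0.08, BH-adjusted p from 0.0508 to 0.16), with library medians aligned (0.05, BH-adjusted p = 0.19) or with only the groups compared (0.08, BH-adjusted p = 0.0603). MLX rose by 0.14 at 8 h of H2O2 (BH-adjusted p = 0.000231), and after NCS by 0.19 at 8 h (BH-adjusted p = 1.79e-05), 0.15 at 24 h (BH-adjusted p = 0.000141) and 0.11 at 4 h (BH-adjusted p = 0.00689), the last not without untreated replicate 1 (0.08, BH-adjusted p = 0.0528). Over 21 libraries MLXIP and MLX had a Pearson correlation of 0.66, MLXIP and ARRDC3 of 0.72, and TXNIP with MLXIP and MLX of 0.32 and 0.30, again with the libraries that chose TXNIP among the points.

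Counted over the 7 genes, calls were frequent, and so they were over all genes. Counts out of 7 against untreated cells include TXNIP, which the untreated libraries helped to choose. In the contrast that chose TXNIP, H2O2 at 4 h against untreated, 45.9% of all genes tested were called, and no count of the 7 genes is given. After 8 h of H2O2, 6 of 7 were called (5 higher, TXNIP lower) against 37.4% of all genes. After 24 h of H2O2, 4 of the 6 genes tested were called, all higher, against 40.0%. NCS called 6 of 7 by 4 h (TXNIP and ARRDC3 lower) against 17.2% of all genes, 3 by 8 h, all higher, against 23.9%, and 4 by 24 h, all higher, against 38.0%. The count at 4 h of NCS ranged from 4 to 6 with each library left out. With only the groups compared, the calls of ARRDC1 and ARRDC2 at 4 h of NCS were lost. Between the stresses, 3 of the 6 genes tested were lower in H2O2 cells at 4 h (ARRDC4, MLXIP and MLX) against 44.4% of all genes called, 5 of 7 were called at 8 h against 34.1%, and of 6 tested at 24 h 2 were called (ARRDC2 higher, MLX lower) against 21.9%. Among the steps in time, 5 of the 6 genes tested were called between 4 and 8 h of H2O2 (45.7% of all genes) and 4 of 6 between 8 and 24 h (42.6%). In NCS cells, 4 of 7 were called in the early step (13.7%) and 5 in the late one (29.9%). The gap between the stresses changed for 5 of 7 genes between 8 and 24 h (21.4% of all genes) and for 2 of the 6 tested between 4 and 24 h (39.4%). The study set a limit of 1 on log2 fold changes from DESeq2, and on the shrunken rLog values used here the same limit is stricter. ARRDC3 passed it between 4 and 8 h of H2O2, where 0.208% of all genes did. TXNIP was beyond it at 4 h of H2O2, where 0.696% of all genes were, but its depth in that contrast is what selected it and nothing is read from this.

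The 5 genes whose values were most like those of TXNIP, by Pearson correlation over 21 libraries among 3069 varied genes, were NAV1 (0.979), ARHGAP24 (0.976), DENND4C (0.965), ANKS1A (0.958) and APBB2 (0.957). NAV1, a microtubule-associated protein, had untreated values of 12.70 to 12.71, 12.20 to 12.26 at 4 h of H2O2, 12.56 to 12.60 at 4 h of NCS and 12.80 to 12.90 at 24 h of either. The 3 most opposite genes were DUSP7 (-0.982), a phosphatase of ERK, SGK1 (-0.965), a kinase induced by serum and stress, and PFKFB3 (-0.957), which makes the activator of phosphofructokinase. SGK1 stood at 10.93 to 11.06 untreated, 11.47 to 11.57 at 4 h of H2O2 and 10.37 to 10.52 at 24 h of either stress. For ARRDC3 the most similar were ALPK2 (0.965), PIK3R1 (0.950), which encodes a regulatory subunit of PI3-kinase, NAGS (0.947), TNFRSF1A (0.935) and BAZ2A (0.928), and for ARRDC4 TRIM13 (0.889), CARD6 (0.888), LUST (0.884), UBE2Q2P1 (0.882) and CCNL2 (0.879). The points share treatment and time and include the libraries that chose TXNIP, so these values describe the shape of the series and no more.

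**Figure D3:**
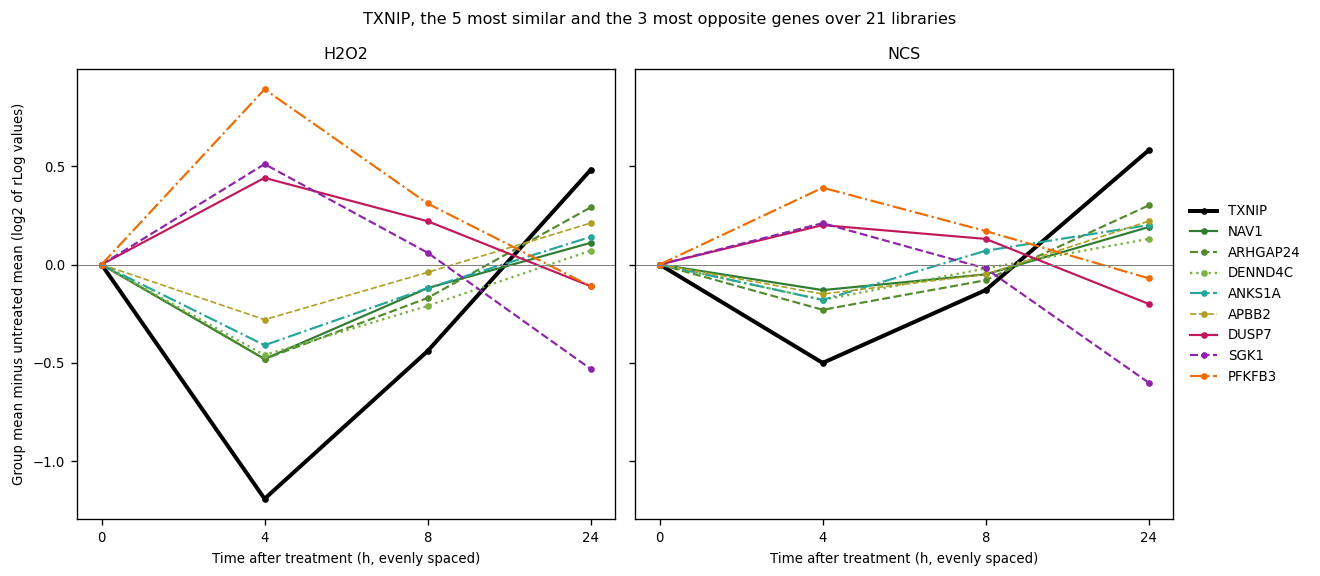
Group mean minus untreated mean (y axis, log2 of rLog values) against time in h, evenly spaced, after H2O2 (left) and NCS (right) for TXNIP, its 5 most similar and its 3 most opposite genes. TXNIP was the deepest line at 4 h (-1.19 after H2O2, -0.50 after NCS), and PFKFB3 was the highest at 4 h of H2O2 (0.89).

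Genes around the sensor, taken from lists, moved in both directions. Of the 4 other MLX partners, 2 rose and 1 fell at 4 h of H2O2 (median 0.04, all genes 0.004), where 45.9% of all genes were called. At 4 h of NCS, where 17.2% were called, 1 rose and 2 fell (median -0.06, all genes -0.000). At 24 h of H2O2, where 40.0% were called, 2 rose (median 0.28, all genes -0.000). At 24 h of NCS, where 38.0% were called, 3 rose (median 0.27, all genes -0.000). MXD4, a repressor that also pairs with MLX, rose by 0.83 at 24 h of H2O2 (SE 0.03, BH-adjusted p = 2.02e-14) and by 0.80 at 24 h of NCS (BH-adjusted p = 3.38e-14). MXD1, a repressor of the same family, rose most at 8 h of H2O2, by 0.64 (BH-adjusted p = 9.88e-08), and MNT fell by 0.30 at 4 h of NCS (BH-adjusted p = 0.000145). MLXIPL, the paralog of MLXIP that encodes ChREBP, was hardly detected (mean -0.35), and it was 1 of the 2 partners that rose at 4 h of H2O2, by 0.05 (BH-adjusted p = 0.000535).

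Of 11 other carbohydrate response genes 10 were tested, and at 4 h of H2O2 5 rose and 3 fell (median 0.10, with 45.9% of all genes called), while at 4 h of NCS 3 rose and 1 fell (median 0.06, with 17.2% of all genes called). GPD1, glycerol 3-phosphate dehydrogenase, had its mean at 4.05 untreated and 5.75 at 4 h of H2O2, a rise of 1.70 (SE 0.06, BH-adjusted p = 3.71e-13), and differed by 0.03 at 4 h of NCS (BH-adjusted p = 0.917). KLF10, a transcription factor induced by glucose and TGF-beta, rose by 0.87 (BH-adjusted p = 5.43e-12) and PKLR, a pyruvate kinase with low values here, by 0.58 (BH-adjusted p = 6.42e-12), both at 4 h of H2O2. In the same comparison ACACA (-0.30, BH-adjusted p = 9.73e-06), FASN (-0.25, BH-adjusted p = 0.000384) and ELOVL6 (-0.30, BH-adjusted p = 3.75e-05) fell. These 3 genes were added after their values were seen, so their p is that of chosen genes. At 24 h of H2O2 1 of the 10 rose and 5 fell (median -0.09, with 40.0% of all genes called). G6PC was listed at 0 in every library.

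Of 19 genes of glucose uptake and phosphorylation, 7 rose and 1 fell at 4 h of H2O2 (median 0.03), a share under the 45.9% called over all genes, and 5 rose and 1 fell at 4 h of NCS (median 0.02, with 17.2% of all genes called). PFKFB3 rose by 0.89 at 4 h of H2O2 (SE 0.03, BH-adjusted p = 1.3e-13) and by 0.39 at 4 h of NCS (BH-adjusted p = 3.37e-08). HK2, the inducible hexokinase that makes glucose 6-phosphate, rose by 0.84 at 4 h of H2O2 (SE 0.06, BH-adjusted p = 8.85e-10) and fell by 0.26 at 4 h of NCS (BH-adjusted p = 0.0029). PFKFB4 rose most at 24 h of NCS, by 0.67 (BH-adjusted p = 9.76e-10). SLC2A1, the glucose transporter GLUT1 that TXNIP is known to restrain, differed by -0.01 at 4 h of H2O2 (BH-adjusted p = 0.668) and fell by 0.17 at 8 h (BH-adjusted p = 1.86e-06). SLC2A3 of the same list was added after its values were seen, so its p is that of a chosen gene. It rose by 0.66 at 4 h (BH-adjusted p = 2.18e-11), 0.64 at 8 h (BH-adjusted p = 1.15e-10) and 0.58 at 24 h of H2O2 (BH-adjusted p = 4.5e-11). At 4 h of NCS it differed by -0.03 (BH-adjusted p = 0.723), and at 24 h it rose by 0.41 (BH-adjusted p = 6.96e-09).

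Of 5 thioredoxin and thioredoxin reductase genes, 2 rose and 1 fell at 4 h of H2O2 (median 0.06, with 45.9% of all genes called), and 1 rose at 4 h of NCS (median 0.02, with 17.2% of all genes called). TXN, whose protein TXNIP binds, rose in H2O2 cells by 0.19 (4 h), 0.23 (8 h) and then 0.24 (24 h) (SE 0.03, BH-adjusted p = 3.7e-05, 4.44e-06 and 1.62e-06), and none of its NCS differences, -0.02 to 0.02, passed. TXNRD1, which reduces thioredoxin with NADPH, rose by 1.06 at 8 h of H2O2 (SE 0.05, BH-adjusted p = 9.27e-11) and was higher than in NCS cells by 1.20 (BH-adjusted p = 6.13e-11). TXNRD3 fell by 0.26 at 8 h of H2O2 (BH-adjusted p = 0.0027). In H2O2 cells at 8 h TXN and TXNRD1 were thus above and TXNIP below the untreated level.

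Of 9 NEDD4-family ligases, which alpha-arrestins recruit, 2 rose and 5 fell at 4 h of H2O2 (median -0.06, with 45.9% of all genes called), and 1 rose and 3 fell at 4 h of NCS (median -0.03, with 17.2% of all genes called). HECW2 rose by 0.36 at 8 h of NCS (BH-adjusted p = 6.75e-07) and was also called higher at the other times of both stresses (0.21 to 0.32). NEDD4L fell by 0.30 at 4 h of NCS (BH-adjusted p = 1.26e-07) and rose by 0.30 at 4 h of H2O2 (BH-adjusted p = 3.11e-08), and SMURF1 rose by 0.26 at 8 h of H2O2 (BH-adjusted p = 2.57e-06). ITCH, a ligase known to ubiquitinate TXNIP, fell by 0.22 at 4 h (BH-adjusted p = 9.22e-06) and rose by 0.22 at 8 h of H2O2 (BH-adjusted p = 1.06e-05), and at 4 h of NCS it differed by -0.03 (BH-adjusted p = 0.633). Of 9 further genes with the arrestin fold, 2 fell at 4 h of H2O2 (median 0.00, against 45.9% of all genes called) and 1 at 4 h of NCS (median -0.00, against 17.2%). At 24 h 3 rose and 1 fell after H2O2 (median 0.07, against 40.0%), and 4 rose and 1 fell after NCS (median 0.06, against 38.0%). At 24 h of NCS ARRB2, a beta-arrestin, was down by a difference of -0.38 (BH-adjusted p = 0.000226), ARRB1 up by 0.23 (BH-adjusted p = 0.00589) and DSCR3, the older symbol of VPS26C, up by 0.22 (BH-adjusted p = 5.23e-06). At 24 h of H2O2 ARRB2 (-0.36, BH-adjusted p = 0.000335) and DSCR3 (0.21, BH-adjusted p = 6.9e-06) moved likewise, and ARRB1 (0.14, BH-adjusted p = 0.0991) did not pass. Of the 3 partners of ARRDC1 in vesicle budding, 1 fell at 4 h of H2O2 (median 0.01, against 45.9% of all genes called) and 1 at 4 h of NCS (median -0.01, against 17.2%). At 24 h 2 rose after H2O2 (median 0.12, against 40.0%) and 1 after NCS (median 0.07, against 38.0%). TSG101 rose at 24 h by 0.25 after NCS (BH-adjusted p = 4.05e-07) and by 0.19 after H2O2 (BH-adjusted p = 9.81e-06). VPS4B fell at 4 h by 0.14 after NCS (BH-adjusted p = 0.0389) and by 0.12 after H2O2 (BH-adjusted p = 0.0266), and VPS4A rose by 0.12 at 24 h of H2O2 (BH-adjusted p = 0.00111).

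**Figure D4:**
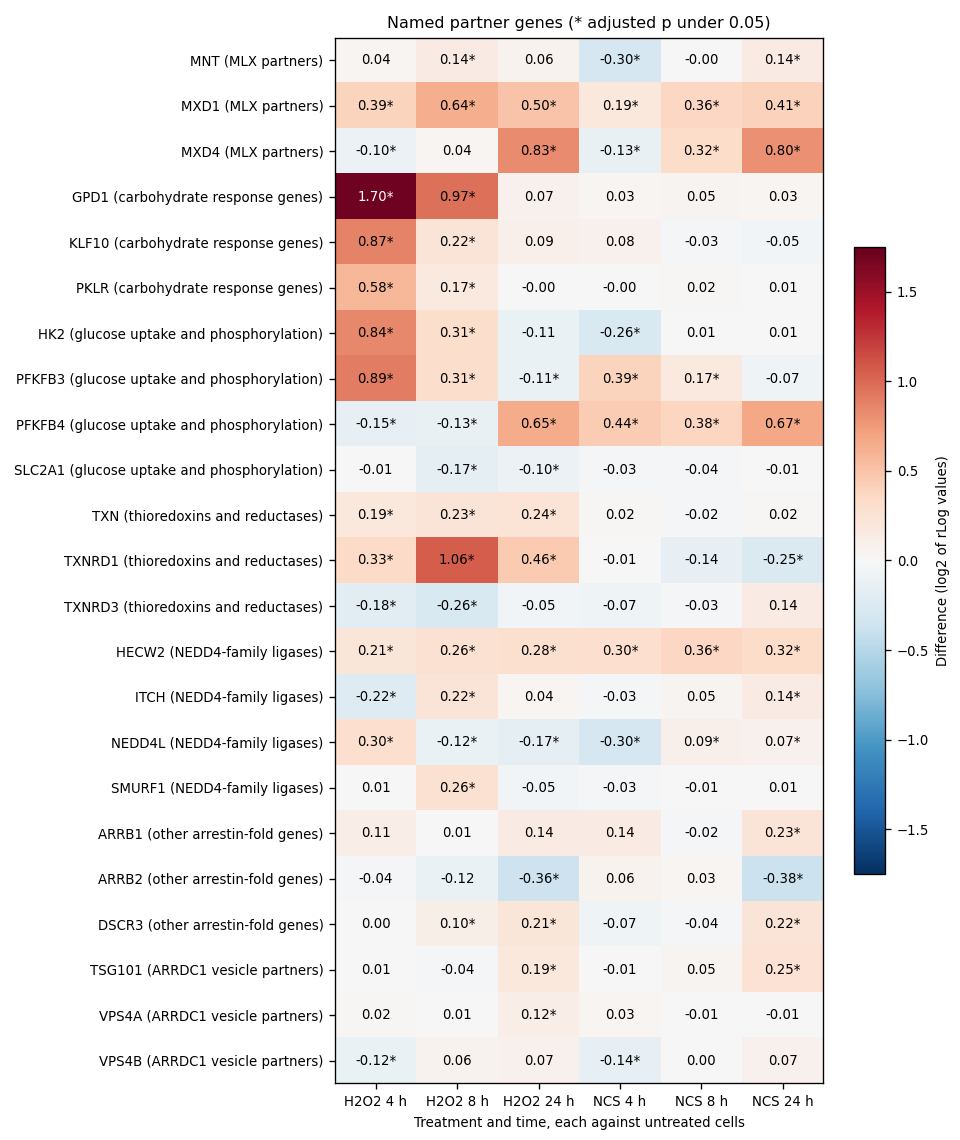
Log2 differences from untreated cells (colour and printed value) of the named genes of each list, without ACACA, FASN, ELOVL6 and SLC2A3, at 4, 8 and 24 h of H2O2 and NCS, from means of 3 libraries, with a star at a BH-adjusted p under 0.05. GPD1 (1.70), PFKFB3 (0.89), KLF10 (0.87) and HK2 (0.84) were highest at 4 h of H2O2, TXNRD1 (1.06) at 8 h, and MXD4 (0.83 and 0.80) at 24 h of both stresses.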

How the data were processed

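RNA of hTERT-HPNE cells was sequenced as 21 stranded mRNA libraries. The authors aligned reads with HISAT2 (hg19 per the submitters' processing notes), counted them with htseq-count and deposited log2 values made by the rLog transformation of DESeq2 over all libraries. Strand setting, annotation and tool versions are not given in the sources used here. The deposited log2 values were used without further normalization, and 3674 genes at 0 in every library were left out. Of the listed symbols 28 read as dates and 2 occurred repeatedly, none of them a member. The members and lists were chosen with earlier results of these data known.

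The 7 groups were fitted together with limma 3.58.1 in R 4.3.3, with a trended prior variance, and p was adjusted after Benjamini and Hochberg over 19694 genes in each of 13 comparisons and 2 contrasts of the H2O2 against NCS difference between times. A gene was called at an adjusted p under 0.05. No p was given for any member at 4 h of H2O2 against untreated, nor for TXNIP in comparisons of H2O2 at 4 or 24 h other than the 24 h minus 8 h contrast. The fit was tested on simulated data. Named genes were the members, the 3 genes of each list with the largest called difference from untreated, TXN, TXNRD1, SLC2A1, HK2 and ITCH, the 5 most alike of TXNIP, ARRDC3 and ARRDC4, and the 3 most opposite of TXNIP, among genes with a mean of at least 5 and a range of group means of at least 0.5. ARRDC1-AS1, ARRDC3-AS1, ACACA, FASN, ELOVL6 and SLC2A3 were added after their values were seen. Promoter windows came from RefSeq (GRCh38.p14, a build other than that of the alignment), matched by symbol for 7 of 7 members. Alternatives were aligned library medians, quantile normalization, a mean of at least 5, no filter on low values, only the groups compared, a replicate block, no trend, each library left out, and for likeness Spearman correlation and group means. The level of 1 duct marker is not reported here.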

Additional observations from a re-analysis of the deposited data

Results flagged for a closer look

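The difference between H2O2 and NCS cells changed with time for 5 of the 7 genes, by limma's test of that change with p adjusted over all genes. From 8 to 24 h, a span in which 21.4% of all genes passed, it changed by 0.36 for ARRDC1 (adjusted p = 0.000555), as the gap of -0.31 at 8 h gave way to 0.06 at 24 h. It changed by -0.41 for ARRDC3 (adjusted p = 0.00171), from 0.54 to 0.13, and by -0.19 for MLXIP (adjusted p = 0.000646), from 0.15 to -0.05. For MLX it changed by -0.12 (adjusted p = 0.0306), from -0.05 to -0.17, and 5 of 21 fits with 1 library left out did not pass (-0.11 to -0.09, adjusted p from 0.0597 to 0.0876), those without H2O2 8 h replicate 1, H2O2 24 h replicate 1, NCS 8 h replicate 1 or NCS 24 h replicate 1 or 3, nor did it pass after quantile normalization (-0.08, adjusted p = 0.144) or with only the groups compared (-0.12, adjusted p = 0.0525). For ARRDC2 it changed by -0.16 (adjusted p = 0.0474), from 0.36 to 0.20, and 16 of 21 such fits did not pass (-0.17 to -0.14, adjusted p from 0.052 to 0.118), nor did those with a replicate block (-0.16, adjusted p = 0.0629) or no filter on low values (-0.16, adjusted p = 0.0587).

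From 4 to 24 h, a span in which 39.4% of all genes passed, the difference changed by 0.26 for ARRDC3 (adjusted p = 0.0212), from -0.12 to 0.13, and did not pass without H2O2 4 h replicate 1, H2O2 24 h replicate 1 or NCS 4 h replicate 3 (0.21 to 0.23, adjusted p from 0.0547 to 0.0642) or after quantile normalization (0.18, adjusted p = 0.103). For MLXIP it changed by 0.11 (adjusted p = 0.0199), from -0.15 to -0.05, and did not pass without H2O2 4 h replicate 3, H2O2 24 h replicate 1 or NCS 24 h replicate 3 (0.09 to 0.10, adjusted p from 0.0517 to 0.0612) or with library medians aligned (0.09, adjusted p = 0.105). What lies behind these changes was not tested.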

How the results depend on the processing

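Over 7 other settings, 674 member values in single comparisons kept their direction and call, or for values without a test moved by less than the replicate SD. Another 23 lost a call, 13 gained 1, 4 moved and 6 changed sign. The 4 that moved were at 4 h of H2O2 against untreated after quantile normalization: ARRDC1 (0.24), ARRDC2 (0.28), ARRDC4 (-0.29) and MLX (-0.05). In the 24 h minus 4 h contrast ARRDC4 passed after quantile normalization (0.27) and ARRDC2 with only the groups compared (0.11). Counts of called genes equalled the main fit in 4 of 13 comparisons with only the groups compared and in 6 with a mean of at least 5. They did so in 8 after quantile normalization and in 9 with library medians aligned. With no trend 11 were equal, with no filter on low values 12, and with a replicate block 12. Of 13 counts of called genes, 2 moved by over 1.5 times: NCS 8 h against untreated was 5 in place of 3 with a mean of at least 5, and NCS 24 h against 8 h was 3 in place of 5 with only the groups compared. With each library left out, these counts ranged from 2 to 5 and from 3 to 5, the extremes of 5 and 3 being those without H2O2 8 h replicate 2 and without NCS 8 h replicate 1. Quantile normalization turned small differences that no fit had called, for MLX in H2O2 24 h against untreated (0.03), ARRDC1 in NCS 24 h against untreated (0.06), in H2O2 against NCS at 4 h (0.05) and in its change from 4 to 24 h (-0.03), and ARRDC2 from 4 to 8 h (-0.02) and 8 to 24 h of H2O2 (0.00). Leaving out 1 library turned ARRDC1 in NCS 24 h against untreated (-0.05 to 0.02 over the libraries) and in H2O2 against NCS at 4 h (-0.05 to 0.04, with 0.02 without H2O2 4 h replicate 3), ARRDC2 in NCS 24 h against untreated (-0.02) and 8 to 24 h of H2O2 (0.01), and ARRDC4 from 4 to 8 h of NCS (-0.01 to -0.00) and in H2O2 against NCS at 8 h (-0.01), none of them called in any fit. The cause was not tested.

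Deviations of same-numbered libraries had a mean correlation of 0.0274 (-0.149 to 0.213), and those of libraries with different numbers of -0.0137 (-0.185 to 0.157). Of 21 libraries 12 correlated best with their own number. A weak pairing by replicate number was thus not excluded, and the main fit had no block. With a replicate block, the calls of MLXIP from 8 to 24 h of NCS (0.07) and of ARRDC2 in the 24 h minus 8 h contrast (-0.16) were lost, 103 of 105 member values kept their call, and 12 of 13 counts were equal. Other calls near the limit were ARRDC1 from 8 to 24 h of H2O2 (0.12), lost in 13 of 21 fits with a library left out and under 4 other settings (0.10 to 0.12), MLXIP from 8 to 24 h of NCS, lost in 11, MLX from 4 to 8 h of NCS (0.08), lost in 5, and ARRDC4 from 8 to 24 h of NCS (0.16), lost without NCS 8 h replicate 1 or NCS 24 h replicate 3. No depth was available, rLog values shrink low genes such as ARRDC4 most, and a mean of at least 5 leaves ARRDC4 out. The median of all genes shifted by at most 0.030 under any setting. By Spearman correlation NAV1 was still the gene most like TXNIP and APBB2 ranked 26, and over the 7 group means ARHGAP24 ranked 1 and NAV1 4, with DUSP7 the most opposite by both.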
